A study of Glycine max with 4 samples.

Results

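GmSPX3 (Glyma.04G147600), GmSPX4 (Glyma.06G069000) and GmSPX8 (Glyma.17G114700) are 3 soybean genes for small proteins made of little more than an SPX domain. They are 3 of the 39505 loci in the deposited expression table, which describes each of them as SPX domain gene 2. Glyma.13G166800, Glyma.04G067400 and Glyma.20G129000 carry the same description. They were chosen by the measured values of these same libraries, in which their transcripts were known to be more abundant in phosphate (Pi)-deprived leaves. Their difference between the treatments is therefore a description and carries no test. The order of their levels within a library did not enter the choice. The other SPX family loci are those that the choice left, so their calls are not independent of it.

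The plants were hydroponically grown seedlings of the cultivar Williams 82, from whose genome the soybean reference was made. At 18 days, counted from germination in the sample labels and over the time in hydroponics in the study's methods, they were moved for 24 h to a solution with 500 μM KH2PO4 (Pi-sufficient leaves, PSL) or with 0 μM KH2PO4 (Pi-deprived leaves, PDL). In the Pi-free solution K2SO4 took the place of KH2PO4, so that both groups received potassium while PDL also received more sulfate. RNA of the first trifoliate leaf of 3 plants went into a library, and there were 2 libraries in each group (PDL-1 and PDL-2, PSL-1 and PSL-2). Each value is therefore a mixture of plants and of all cell types of the leaf, in which fewer cells of a type and less RNA per cell cannot be told apart.

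The SPX domain binds inositol pyrophosphates, signaling molecules whose amount in plant cells follows the Pi supply. In Arabidopsis and rice, SPX proteins loaded with these molecules hold the transcription factor PHR1, or its rice counterpart, away from the promoters of Pi starvation genes. When Pi runs low the complex falls apart and PHR1 becomes active, and SPX1 of Arabidopsis is itself a gene that PHR1 turns on. The domain is also the N-terminal part of larger proteins. It precedes an EXS domain in the Pi exporters of the PHO1 type, a major facilitator (MFS) transporter in the vacuolar Pi importers, and a RING finger in ubiquitin ligases such as NLA that remove Pi transporters from the plasma membrane.

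Expression was given as FPKM, the sequenced fragments of a transcript scaled to its length and to the mapped fragments of the library, which allows levels of different genes to be compared within a library. The values are normalized estimates and not read counts, and the number of fragments behind each of them is not known here. GmSPX8 was the most abundant of the 3 genes. PDL-1 and PDL-2 gave 22.2 and 17.2 FPKM, and PSL-1 and PSL-2 gave 7.61 and 7.35. Both Pi-deprived libraries lay above both Pi-sufficient ones, and the PSL values lay closer together than the PDL values. The mean was 19.7 ± 3.53 in PDL and 7.48 ± 0.182 in PSL (SD, n = 2 each), a ratio of 2.63. Taking the libraries singly, the ratio of a PDL to a PSL value was between 2.26 and 3.02. On the log2(FPKM + 0.1) scale used for all fold changes here, which understates the change of genes with few FPKM, the log2 fold change was 1.37 ± 0.17 (SE).

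For GmSPX4, PDL-1 and PDL-2 gave 2.38 and 2.56 FPKM, and PSL-1 and PSL-2 gave 0.914 and 0.788. The groups did not overlap, and of the 3 genes this one had the smallest spread between its Pi-deprived libraries. Its mean was 2.47 ± 0.130 in PDL and 0.851 ± 0.0887 in PSL (SD, n = 2 each), a ratio of 2.91, and its log2 fold change was 1.44 ± 0.24 (SE).

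For GmSPX3, PDL-1 and PDL-2 gave 3.10 and 2.21 FPKM, whereas PSL-1 and PSL-2 gave 0.340 and 0.435. It was the gene with the lowest level in Pi-sufficient leaves and the one with the widest relative gap between the treatments. The mean of 2.65 ± 0.629 in PDL was 6.84 times that of 0.388 ± 0.0667 in PSL (SD, n = 2 each), and single libraries differed by 5.07 to 9.09 times. The log2 fold change was 2.48 ± 0.34 (SE). In absolute terms the order of the genes was another one, since the mean difference between PDL and PSL was 12.2 FPKM for GmSPX8, 2.26 for GmSPX3 and 1.62 for GmSPX4.

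**Figure D1:**
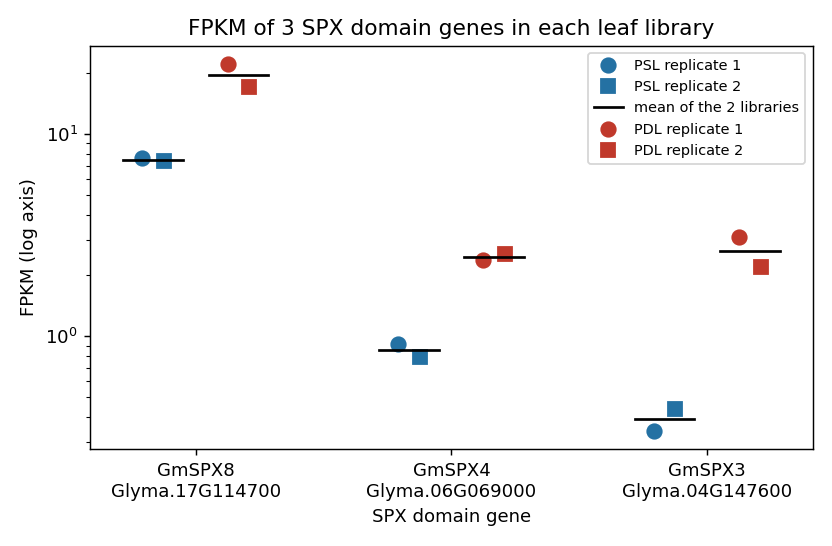
FPKM of GmSPX8, GmSPX4 and GmSPX3 on a log axis, with a point for each of the 2 PSL (blue) and 2 PDL (red) libraries and a bar at the group mean. For each gene both red points lie above both blue points, and the gap is widest for GmSPX3, at 0.388 FPKM in PSL and 2.65 in PDL on average.

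The gaps between replicates are given beside those of other loci at a like level (a group mean within 1.25 times that of the gene). Since the genes were chosen for their difference between the treatments, which favours close replicates, this is a description and lends no support to the low values. The PSL values of GmSPX3 differed by 0.28 on the log2 scale, where the median over 1114 loci of that level was 0.62 and 1 locus in 10 differed by more than 2.21. For GmSPX4 the PSL values differed by 0.19 on the log2 scale, against a median of 0.51 over 1842 loci. For GmSPX8 they differed by 0.05 on the log2 scale, against a median of 0.19 over 3457 loci. The PDL values of GmSPX3 and GmSPX8 differed by 0.47 and 0.37 on the log2 scale, above the medians of 0.30 and 0.16 at their levels, and those of GmSPX4 by 0.10, against a median of 0.30.

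The comparison of PDL with PSL was fitted with limma over the 32686 loci with a mean of at least 0.3 FPKM. The thresholds were those of the study: a locus is called where its level changed at least 2-fold (1 on the log2 scale) and its unadjusted p did not exceed 0.05. All 3 genes were called higher, as their choice implies, where 1.14% of all loci tested were called higher and 2.03% in either direction. With a pseudocount of 1 GmSPX4 had a log2 fold change of 0.91 and was not called. All 3 also had PDL values wholly above their PSL values, which held for 20.2% of the loci tested. Among all loci tested, 400 had a larger log2 fold change than GmSPX3, 828 than GmSPX4 and 878 than GmSPX8. Of these, 88, 191 and 211 were called higher. All loci tested had a median of −0.01 on that scale. With 2 libraries a side, exact permutation of the labels could not reach a p of 0.05.

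The levels of the 3 genes relative to each other were compared within each library. GmSPX8 exceeded GmSPX4 by 9.33 and 6.71 times in the PDL libraries and by 8.33 and 9.32 times in the PSL libraries. The ratio thus had a similar size with and without Pi, although both genes were higher in PDL. GmSPX8 exceeded GmSPX3 by 7.17 and 7.80 times in PDL and by 22.3 and 16.9 times in PSL. The mean differences over the 4 libraries were 2.97 ± 0.203 on the log2 scale for GmSPX8 minus GmSPX4 and 3.41 ± 0.656 for GmSPX8 minus GmSPX3 (SD). These SDs span both treatments, and the mean of GmSPX8 minus GmSPX3 was 2.86 in PDL and 3.96 in PSL. Both differences had the same direction in 4 of 4 libraries, with an exact two-sided sign-flip permutation p of 0.125, the smallest that 4 libraries can give (0.188 adjusted over the 3 pairs).

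GmSPX4 and GmSPX3 did not keep 1 order. GmSPX4 had 2.68 and 1.81 times the level of GmSPX3 in the PSL libraries, whereas in PDL the ratio was 0.769 in PDL-1 and 1.16 in PDL-2. Over the 4 libraries the difference was 0.44 ± 0.676 on the log2 scale (SD, exact two-sided sign-flip permutation p = 0.375, also after adjustment over the 3 pairs). This SD spans both treatments, with a mean difference of −0.08 in PDL and 0.97 in PSL, and is not a spread between replicates alone. The order in Pi-sufficient leaves was therefore GmSPX8, GmSPX4, GmSPX3 in both libraries. In Pi-deprived leaves GmSPX8 came first, and the order of the other 2 genes differed between PDL-1 and PDL-2.

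**Figure D2:**
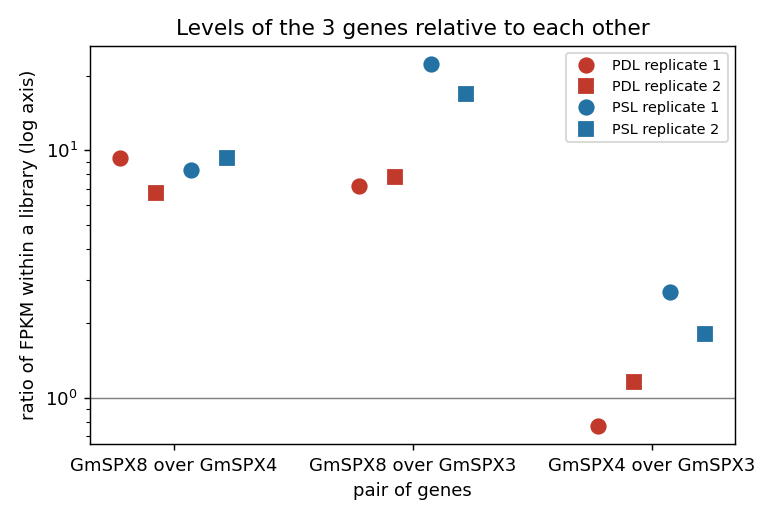
Ratio of FPKM between 2 of the genes within each library, on a log axis with a line at equal levels. The ratio of GmSPX8 to GmSPX4 lies between 6.71 and 9.33 in all 4 libraries, while the ratios with GmSPX3 are lower in the PDL libraries (red) than in the PSL libraries (blue).

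The table holds 27 further loci with an SPX family description, and 18 of them passed the filter on low values. These 18 are reported with their tests, but as a set they are not independent of the choice. GmSPX3, GmSPX4 and GmSPX8 had been taken out of the family for their change. The 2 loci called below were reported as induced from the same libraries. In limma 2 of the 18 were called higher and 0 lower, where 1.14% and 0.887% of all loci tested were. Both passed the filter on low values through their PDL values. Their PSL means were 0.282 FPKM for Glyma.02G130200 and 0.197 FPKM for Glyma.01G091800, below the 0.3 FPKM of the filter. In 4 of the 18 the unadjusted limma p did not exceed 0.05, which held for 8.93% of all loci tested, and in 0 was the adjusted p under 0.05, which held for 0.0581%. Their median log2 fold change was 0.04, against −0.01 for all loci tested. Not passing the filter were 9 loci, with at most 0.460 FPKM in any library.

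Besides the 3 genes, 5 loci are described as an SPX domain gene. Of these 5, 3 were tested and 0 called in limma, with 1 at an unadjusted p up to 0.05. They are the loci that the choice of the 3 genes left, so the 0 calls are no independent result. Glyma.13G166800 was the most abundant of all 8. Its values were 27.5 and 22.4 FPKM in the PDL libraries against 14.7 and 13.8 in the PSL libraries. Its groups did not overlap, but its log2 fold change of 0.79 ± 0.15 (SE, limma adjusted p = 0.471) stayed below the threshold. Its level was 1.24 and 1.30 times that of GmSPX8 in PDL and 1.93 and 1.88 times that of GmSPX8 in PSL.

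Glyma.13G061700, described as SPX domain gene 4, had 8.41 and 9.08 FPKM in the PDL libraries against 9.57 and 10.3 in the PSL libraries. SPX4 of Arabidopsis and rice is a member of the group that is regulated mainly as a protein, and here the log2 fold change was −0.18 ± 0.13 (SE, limma adjusted p = 0.711). Glyma.04G067400 had 2.19 and 2.09 FPKM in the PDL libraries against 0.839 and 2.85 in the PSL libraries. Its PSL libraries lay on either side of the PDL values, and its log2 fold change of 0.43 ± 0.60 (SE, limma adjusted p = 0.838) did not pass. Without PSL-2 it was 1.25 (limma adjusted p = 0.662) and was called, and over the 4 fits that left out 1 library it ranged from −0.40 to 1.25. Glyma.20G129000 and Glyma.01G135500 had at most 0.169 FPKM and were listed at 0 in 2 libraries each.

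Summed over the 8 loci described as SPX domain gene, the level was 65.7 and 55.7 FPKM in the PDL libraries against 34.1 and 35.7 in the PSL libraries. Without GmSPX3, GmSPX4 and GmSPX8, the sum of the other 5 loci was 38.1 and 33.7 FPKM in PDL against 25.3 and 27.1 in PSL. The 3 genes were chosen as higher in PDL. Their part in the full sum, their shares and their ranks therefore restate that choice and are a description. Together they made up 42.1% and 39.4% of the full sum in PDL against 26.0% and 24.0% in PSL. The share of GmSPX8 alone was 33.8% and 30.9% in PDL against 22.3% and 20.6% in PSL. GmSPX3 held 4.71% and 3.96% in PDL against 0.998% and 1.22% in PSL. Glyma.13G166800 held a like share in every library, between 38.8% and 43.0%, and that of Glyma.13G061700 was lower in PDL (12.8% and 16.3%) than in PSL (28.1% and 28.8%). These shares also depend on the choice, since the full sum holds the 3 genes. The level of Glyma.13G061700 itself had a log2 fold change of −0.18. Among all 30 SPX family loci, GmSPX8 was the 8th most abundant in both PSL libraries and the 3rd and 4th in PDL. GmSPX3 went from 18th in both PSL libraries to 10th and 11th in PDL, and GmSPX4 from 15th and 16th to 11th and 10th.

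**Figure D3:**
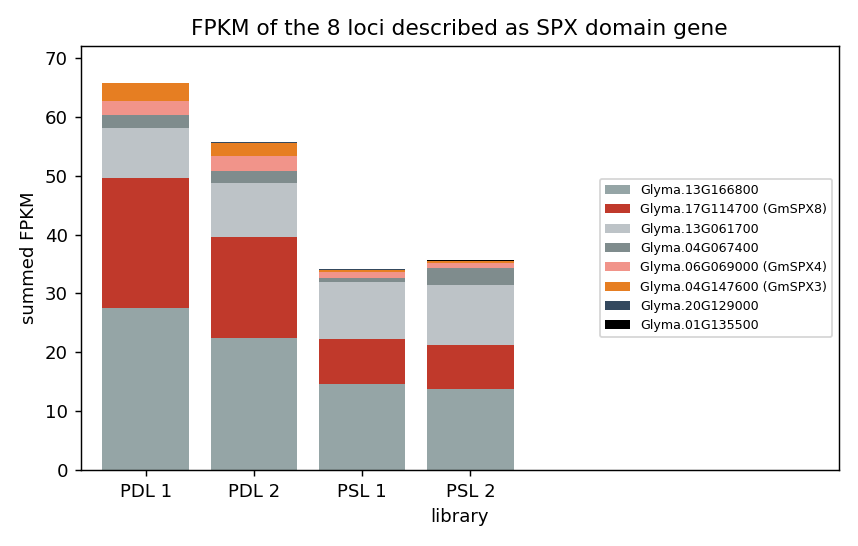
Summed FPKM of the 8 loci described as SPX domain gene in each library, with a segment per locus (GmSPX8 in red, GmSPX4 in pink, GmSPX3 in orange, the other loci in grey or black). The bars reach 65.7 and 55.7 in PDL against 34.1 and 35.7 in PSL, and Glyma.13G166800, at the base, is the tallest segment in every bar.

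Both loci called among the other SPX family loci are of the PHO1 type, the SPX-EXS proteins. They are named after PHO1 of Arabidopsis, which loads Pi into the xylem, and what the soybean proteins do was not tested. GmPHO1;H14 (Glyma.02G130200) had 1.48 and 0.854 FPKM in the PDL libraries against 0.296 and 0.269 in the PSL libraries. Its log2 fold change was 1.69 ± 0.49 (SE, limma adjusted p = 0.527). GmPHO1;H12 (Glyma.01G091800) had 0.860 and 0.733 FPKM in the PDL libraries against 0.208 and 0.185 in the PSL libraries, and a log2 fold change of 1.59 ± 0.53 (SE, limma adjusted p = 0.546). Their groups did not overlap, and in the Pi-sufficient libraries both lay below the level of GmSPX3. The size of the difference of GmPHO1;H14 was much the same with 1 PSL library left out, at a log2 fold change of 1.74 without PSL-1 (unadjusted limma p of 0.0558) and 1.63 without PSL-2 (unadjusted limma p of 0.0632). Its call was lost there on the p alone, in fits where the PSL side is a single library and is assumed to vary like the PDL side. For GmPHO1;H12 the call was lost with the replicate number as a block, at the same log2 fold change of 1.59 (unadjusted limma p of 0.0891). With a pseudocount of 1 both calls were lost, at log2 fold changes of 0.74 for GmPHO1;H14 and 0.59 for GmPHO1;H12.

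Of the 9 SPX-EXS loci tested, the other 7 were not called. The most abundant, Glyma.20G031700, had 6.79 and 11.0 FPKM in the PDL libraries against 7.91 and 10.4 in the PSL libraries (log2 fold change −0.06 ± 0.30 SE, limma adjusted p = 0.960). Glyma.12G196000 had 1.88 and 2.14 FPKM in the PDL libraries against 3.19 and 3.37 in the PSL libraries. Its PDL values lay below its PSL values, with a log2 fold change of −0.68 ± 0.18 (SE, limma adjusted p = 0.522).

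The SPX-MFS loci, for transporters that bring Pi into the vacuole, include the most abundant locus of the family, and 0 of the 5 tested were called in limma, with 0 at an unadjusted p up to 0.05. Glyma.18G228700 had 30.2 and 33.1 FPKM in the PDL libraries against 31.5 and 26.3 in the PSL libraries (log2 fold change 0.14 ± 0.14 SE, limma adjusted p = 0.781). Glyma.16G176100 had 16.0 and 16.2 FPKM in the PDL libraries against 16.0 and 16.3 in the PSL libraries, a log2 fold change of −0.01 ± 0.11 (SE, limma adjusted p = 0.988). The summed FPKM of all 6 SPX-MFS loci was 74.2 and 86.2 in PDL against 83.6 and 71.2 in PSL, so that the groups overlapped. Of the 4 loci described as an SPX domain-containing protein, 1 of them with a RING finger in its description, only Glyma.03G214100 passed the filter. Its values were 1.53 and 0.997 FPKM in the PDL libraries against 1.61 and 1.12 in the PSL libraries (limma adjusted p = 0.937).

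**Figure D4:**
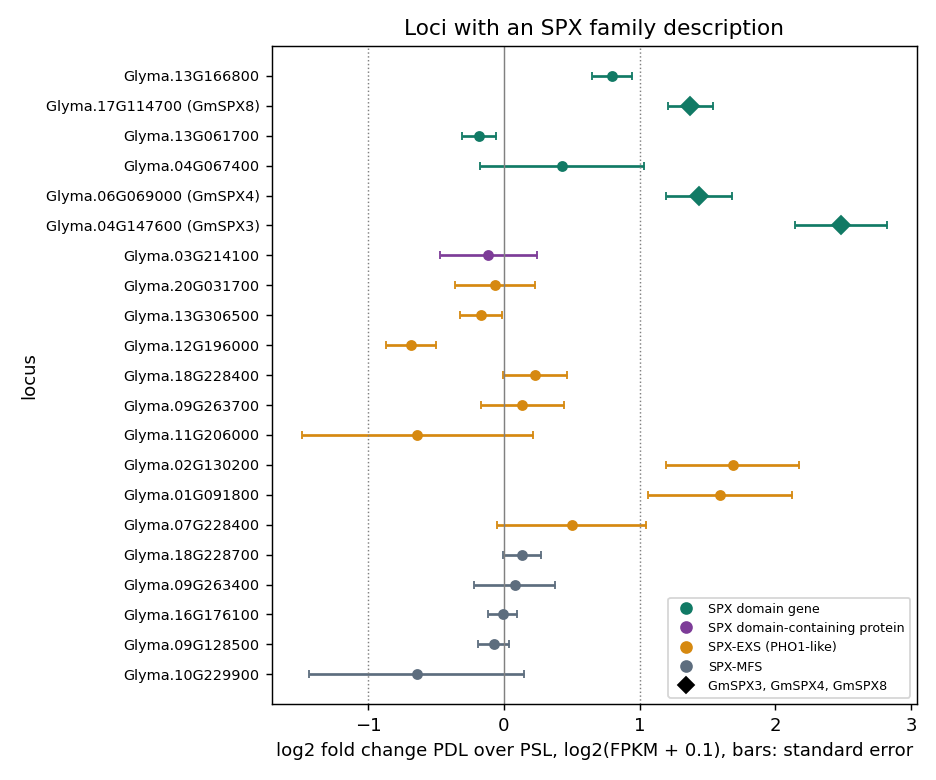
Log2 fold change of PDL over PSL on log2(FPKM + 0.1) for the 21 SPX family loci tested, with the standard error of the limma fit as bars and dotted lines at −1 and 1. Diamonds mark GmSPX8, GmSPX4 and GmSPX3, which lie beyond 1 together with 2 SPX-EXS loci, while the 5 SPX-MFS loci lie between −0.64 and 0.14.

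The places of the genes in the Gmax2.0 genome, with coordinates as in the deposited table, show features that did not enter their choice. GmSPX3 lies on chromosome 4 from 29849840 to 29852794, GmSPX4 on chromosome 6 from 5290303 to 5291652 and GmSPX8 on chromosome 17 from 9074619 to 9076901. Each is listed with 1 transcript model. The neighbours were compared among the loci in the table, after their descriptions had been seen. Each of the 3 genes has a locus described as a DnaJ/Hsp40 cysteine-rich domain protein, a type of co-chaperone, among the next 3 loci at higher coordinates. Among the detected loci, none of the other 5 SPX domain gene loci has one. Genes not detected in these leaves are missing from the comparison, so an absence from the genome is not shown. The table holds 13 such loci in all, and 39 of its 39505 loci (0.0987%) have one of them in that place. This share is given for scale and carries no test, since the feature was picked from the 3 genes themselves.

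These neighbours were not called in limma. Glyma.06G069100 begins 57 bp after the end of GmSPX4. Its values were 13.4 and 19.3 FPKM in the PDL libraries against 10.2 and 12.6 in the PSL libraries, a log2 fold change of 0.50 ± 0.24 (SE, limma adjusted p = 0.615). This locus is more abundant than GmSPX4 and close to it, and whether reads from it entered the value of GmSPX4 was not tested. Glyma.17G114800, 11124 bp from GmSPX8, had 122 and 120.2 FPKM in the PDL libraries against 84.6 and 114 in the PSL libraries, a log2 fold change of 0.31 ± 0.17 (SE, limma adjusted p = 0.661). Glyma.04G147800, 350533 bp from GmSPX3, had a log2 fold change of 0.44 in limma.

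GmSPX4 and Glyma.04G067400 sit in matching blocks of genes. At lower coordinates each is next to a locus for RNA-dependent RNA polymerase 6, then an Integrase-type DNA-binding protein, then a phospholipase D alpha. At higher coordinates a DEAD/DEAH box RNA helicase and a nucleotide-sugar transporter follow, in the case of GmSPX4 after the DnaJ/Hsp40 locus. Within the libraries, GmSPX4 had 1.09 and 1.22 times the FPKM of Glyma.04G067400 in PDL and 1.09 times in PSL-1, but 0.277 times in PSL-2. GmSPX8 and Glyma.13G166800 both have a locus for ribosomal protein L36 among the 3 neighbours at lower coordinates. The similarity of the sequences of these loci, and any division of shared reads between them, were not tested.

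The other genes of the Pi signaling pathway were taken from lists of description words, and their median log2 fold changes are read against the −0.01 of all loci tested. The 4 loci described as phosphate starvation response 1, the partner of SPX proteins in Arabidopsis, were all tested and 0 were called in limma, with 0 at an unadjusted p up to 0.05. Their median was 0.02. The most abundant, Glyma.03G166400, had 14.6 and 14.9 FPKM in the PDL libraries against 14.4 and 13.5 in the PSL libraries (log2 fold change 0.08 ± 0.11 SE, limma adjusted p = 0.833). Of 25 loci tested that are described as MYB-like HTH regulators, the wider family of PHR1, 1 was called lower and 0 higher. Of all loci tested, 0.887% were called lower and 1.14% higher. An unadjusted limma p up to 0.05 was seen in 2 of the 25, where 8.93% of all loci had one. The median of the 25 was 0.15. The locus called was Glyma.02G177800, at 0.887 and 0.718 FPKM in the PDL libraries against 2.27 and 2.81 in the PSL libraries. It had a log2 fold change of −1.55 ± 0.27 (SE, limma adjusted p = 0.470). With a pseudocount of 1 it was −0.97 and the locus was not called.

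The list of PHO2, a ubiquitin-conjugating enzyme that lowers Pi transport proteins in Arabidopsis, and of the transporter traffic facilitator PHF1 held 6 loci tested, with 0 called in limma and 0 at an unadjusted p up to 0.05. Its median was −0.12. Its most abundant locus, Glyma.13G239100, had 30.7 and 31.6 FPKM in the PDL libraries against 33.1 and 39.7 in the PSL libraries (log2 fold change −0.22 ± 0.13 SE, limma adjusted p = 0.678). Of 24 Pi transporter loci tested, 0 were called in limma, where 2.03% of all loci tested were, and the median was 0.05. An unadjusted limma p up to 0.05 was seen in 2, where 8.93% of all loci had one. These 2 are both described as phosphate transporter 1;7, a type that carries Pi across the plasma membrane. Both had PDL values wholly below their PSL values, which held for 21.1% of the loci tested. Glyma.10G186500 had 28.8 and 27.4 FPKM in the PDL libraries against 51.8 and 44.0 in the PSL libraries (log2 fold change −0.76 ± 0.13 SE, limma adjusted p = 0.470). Glyma.20G204000 had 38.0 and 36.4 FPKM in the PDL libraries against 55.8 and 58.7 in the PSL libraries (log2 fold change −0.62 ± 0.10 SE, limma adjusted p = 0.470). They were singled out after their values were seen. The plastid transporter Glyma.18G144100 (phosphate transporter 2;1) had 95.3 and 103 FPKM in the PDL libraries against 92.1 and 109.7 in the PSL libraries. Of 13 loci for inositol phosphate kinases, which supply the precursors of the molecules that SPX domains bind, 1 was called higher and 0 lower. Of all loci tested, 1.14% were called higher and 0.887% lower. An unadjusted limma p up to 0.05 was seen in 3 of the 13, where 8.93% of all loci had one. The median of the 13 was 0.06. The locus called was the merged Glyma.14G072100,Glyma.14G072200, which joins an inositol-pentakisphosphate 2-kinase with a heavy metal transport gene under 1 value. That value was 8.06 and 4.62 FPKM in the PDL libraries against 2.13 and 2.29 in the PSL libraries (log2 fold change 1.42 ± 0.31 SE, limma adjusted p = 0.483). Without PSL-1 the log2 fold change of this locus was 1.38 (unadjusted limma p of 0.0905) and without PSL-2 it was 1.47 (unadjusted limma p of 0.0795), so that the call was lost on the p alone with a single PSL library.

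A last list matched words for enzymes and genes tied to the response to Pi starvation in Arabidopsis, such as sulfolipid and galactolipid synthesis, all purple acid phosphatases and ribonuclease 1. It is a match of words, and not every member is known to be induced by Pi starvation. It held 67 loci, of which 55 were tested. In limma 7 were called higher and 0 lower, where 1.14% and 0.887% of all loci tested were. An unadjusted p up to 0.05 was seen in 14, where 8.93% of all loci had one, and an adjusted p under 0.05 in 0. The median was 0.18, and in 25 of the 55 loci both PDL libraries lay above both PSL libraries, where 20.2% of all loci did. Several of these genes were reported as changed from the same libraries, so the count is not independent of that.

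Of the 7, 3 are for enzymes of the exchange of phospholipids for lipids without phosphorus. The sulfolipid synthase gene Glyma.03G078300 (sulfoquinovosyldiacylglycerol 2) had 2.00 and 1.12 FPKM in the PDL libraries against 0.125 and 0.0531 in the PSL libraries, a log2 fold change of 3.11 ± 0.60 (SE, limma adjusted p = 0.471). It passed the filter on low values through its PDL values, with a PSL mean of 0.0889 FPKM. A second copy, Glyma.01G113000, had 47.5 and 34.0 FPKM in the PDL libraries against 15.3 and 15.3 in the PSL libraries, with a log2 fold change of 1.39 ± 0.19 (SE, limma adjusted p = 0.438). Glyma.20G238000 (phospholipase D P1), whose Arabidopsis counterparts break down phospholipids, had 1.49 and 1.03 FPKM in the PDL libraries against 0.338 and 0.334 in the PSL libraries. Its log2 fold change was 1.62 ± 0.42 (SE, limma adjusted p = 0.511). With a pseudocount of 1 it was 0.75 and the locus was not called. Glyma.09G041400 and Glyma.15G152100, also described as phospholipase D P1, were more abundant and were not called. Both had PDL values wholly below their PSL values.

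The other 4 loci included 2 for purple acid phosphatases, enzymes that release Pi from organic compounds. Glyma.08G056400 (purple acid phosphatase 17) had 12.4 and 4.80 FPKM in the PDL libraries against 1.55 and 1.09 in the PSL libraries, a log2 fold change of 2.48. Glyma.19G026600 (purple acid phosphatase 23) had 2.82 and 2.13 FPKM in the PDL libraries against 0.922 and 1.08 in the PSL libraries, a log2 fold change of 1.22. Glyma.20G222600, for the kinase that activates phosphoenolpyruvate carboxylase, had 186 and 176.0 FPKM in the PDL libraries against 92.4 and 75.3 in the PSL libraries, a log2 fold change of 1.12. Glyma.09G223700 (phosphate starvation-induced gene 3) had 37.4 and 26.6 FPKM in the PDL libraries against 13.3 and 17.3 in the PSL libraries, a log2 fold change of 1.05. Each of these 4 calls was lost in a fit with a single library on 1 side. For Glyma.08G056400 it was lost on the p alone, with a log2 fold change of 2.71 without PSL-1 (unadjusted limma p of 0.0631) and 2.25 without PSL-2 (unadjusted limma p of 0.0905). For Glyma.19G026600 it was also lost on the p alone, at 1.03 without PDL-1 (unadjusted limma p of 0.0508) and 1.12 without PSL-1 (unadjusted limma p of 0.0598), and with a pseudocount of 1 the log2 fold change was 0.79. Both the fold and the p missed the thresholds for Glyma.09G223700, at 0.81 without PDL-1 (unadjusted limma p of 0.0597) and 0.87 without PSL-1 (unadjusted limma p of 0.0838). Glyma.20G222600 had a log2 fold change of 0.97 without PSL-2.

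**Figure D5:**
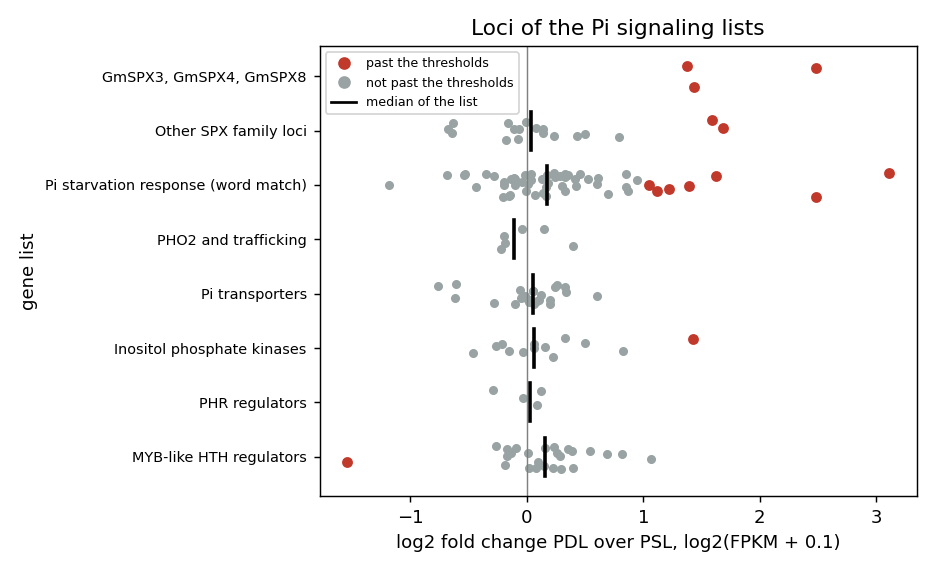
Log2 fold change of PDL over PSL on log2(FPKM + 0.1) for the tested loci of each Pi signaling list, with loci past the thresholds in red and the median of a list as a black bar. The top row holds GmSPX3, GmSPX4 and GmSPX8, the row below it the 18 other SPX family loci, and red points are most numerous (7) in the list matched to the Pi starvation response.

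The loci whose 4 values ran most like those of each gene were sought among 23006 described single-gene loci with a mean of at least 1 FPKM. The measure was the root mean square difference of log2(FPKM + 0.1), each locus centred on its own mean over the 4 libraries. With 4 values this is a description and carries no p. The nearest to GmSPX8 was the sulfolipid synthase gene Glyma.01G113000, at 0.04, followed by Glyma.09G011100 (inositol monophosphatase family) at 0.07 and Glyma.04G014700 (xylem cysteine peptidase 2) at 0.10. The nearest to GmSPX3 was Glyma.11G185300, described as a Jojoba acyl CoA reductase-related male sterility protein, at 0.08. Its values were 32.0 and 20.3 FPKM in the PDL libraries against 4.43 and 5.13 in the PSL libraries. Next came Glyma.08G195100 (pyridoxal phosphate phosphatase-related) at 0.18 and Glyma.08G218900 (phospholipid N-methyltransferase) at 0.19. The nearest to GmSPX4 were Glyma.11G073100 (beta-galactosidase 3) at 0.08, Glyma.06G081800 (protein kinase) at 0.09 and Glyma.11G106300 (major facilitator superfamily) at 0.10. GmSPX4 and GmSPX8 lay 0.18 from each other, closer than either lay to GmSPX3 (0.59 for GmSPX4, 0.57 for GmSPX8).

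The 4 libraries listed 35517 to 36536 loci above 0, with a median of 6.07 to 6.10 FPKM over the loci tested, and their 10 most abundant loci made up 24.8% to 31.1% of the summed FPKM. The label of the tissue was met by markers of leaf mesophyll, since genes for the small subunit of Rubisco and for light-harvesting proteins were among the most abundant, led by Glyma.13G046200 at 13908 to 23945 FPKM. Of the 64 mesophyll marker loci tested, 60 had both PDL values above both PSL values, where 20.2% of all loci tested did. In limma 0 of the 64 were called, where 2.03% of all loci were, and 6 had an unadjusted p up to 0.05, where 8.93% had. Their median log2 fold change was 0.27, against −0.01 for all loci, and their summed FPKM was 184104 and 180516 in PDL against 140476 and 157417 in PSL, a ratio of 1.22 between the means. The part of this in the difference of the SPX genes was not tested. Of the words for other tissues, those for root marked 10 loci tested (1 called lower, median −0.06), led by a root hair specific 19 locus at 253 to 325 FPKM. The word for guard cells marked 1 (median −0.00) and those for seeds 54 (4 called higher, 1 lower, median 0.36). Of all loci tested, 1.14% were called higher and 0.887% lower. The most abundant of the seed loci are described as lipid-transfer or storage proteins. A listing at 0 is not proof of absence here, since 410 of 14148 loci that reached 10 FPKM in 1 library were listed at 0 in another.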

How the data were processed

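Leaf RNA from 2 PDL and 2 PSL libraries was analysed. Per the study's methods, the authors cleaned read pairs (FASTX-toolkit, FastQC), aligned them to Gmax2.0 by TopHat on a Bowtie2 index, and quantified loci with Cufflinks and Cuffdiff; versions are not given in the sources used here. The deposited table holds the FPKM of each locus per library, which the authors normalized to transcript length and mapped fragments. Its pooled FPKM and its columns of fold changes, test statistics, p-values and calls were not used. Fragments per locus and sequences of the genes were not used here.

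log2(FPKM + 0.1) of loci with a mean of at least 0.3 FPKM was fitted with limma 3.58.1 (R 4.3.3, lmFit and eBayes with trend, no covariate), p-values being Benjamini-Hochberg adjusted over 32686 loci. The script was checked on simulated data. Other steps used Python 3.11.15. Alternatives were pseudocounts of 1 and 0.01, a filter at 1 FPKM or none, median centring, quantile normalization, no trend, a replicate block and leaving out each library. Named loci are the 3 genes, the SPX family, pathway loci past the thresholds or, failing these, the most abundant, and the 3 most similar loci per gene. The DnaJ/Hsp40 neighbours and the 2 phosphate transporter 1;7 loci that were lower in PDL were singled out after their values were seen. Further loci of the same description as a named one were added later. The genes and lists were chosen with earlier results of these data known. Each library came from 3 randomly taken plants.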

Additional observations from a re-analysis of the deposited data

How the results depend on the processing

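The log2 fold changes of the 3 genes kept their sign in all 13 settings, from 1.39 to 2.73 for GmSPX3, 0.91 to 1.53 for GmSPX4 and 1.19 to 1.56 for GmSPX8. A pseudocount of 1, which pulls low values together, gave 1.39 for GmSPX3 and 0.91 for GmSPX4, so that GmSPX4 was no longer called. Leaving out 1 library gave 2.25 to 2.72 for GmSPX3, 1.34 to 1.53 for GmSPX4 and 1.19 to 1.56 for GmSPX8. The differences in level between the genes kept their direction in every setting run. Of all loci, 663 were called, but 365 with a pseudocount of 1, 1041 with no filter, and 1066 to 1407 with 1 library left out. The share called higher was 56.3%, and 43.7% without PDL-1. Among the 18 other SPX family loci, 2 were called, but 0 with a pseudocount of 1 (4 at an unadjusted limma p of at most 0.05), 0 of 12 with a filter at 1 FPKM (2 at that p), since both SPX-EXS loci fell below it, and 1 to 2 with 1 library left out. Of the 11 SPX family and pathway loci named as called besides the 3 genes, 2 were called in every setting they were tested in, while for the loci named only for their likeness no setting was run.

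The replicate numbers are not stated to mark shared plants or days, and over 32686 loci the differences between replicates 1 and 2 of PDL and PSL correlated at r = −0.08. With the replicate block 662 loci were called, 0 of them at an adjusted p under 0.05 against 19, and 1 other SPX family locus, as GmPHO1;H12, at an identical log2 fold change of 1.59, had an unadjusted limma p of 0.0891. With 2 libraries per group, all standard errors rest on few degrees of freedom, and the depth behind values under 1 FPKM, such as those of GmSPX3 and GmSPX4 in PSL, is unknown.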
